A study of Mus musculus with 5 samples.

Results

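The regions described here are 2034 binding sites of RNA polymerase II (RNAPII) in mouse mammary epithelial cells that also carried 2 subunits of the negative elongation factor, NELF-A and NELF-B, and shared no base with a listed R-loop peak. They were chosen by overlap and width: an RNAPII peak under 5000 bp wide that shared 1 bp or more with a NELF-A peak and with a NELF-B peak, and no base with a peak of DRIP-seq. They made up 26.4% of the 7718 RNAPII peaks. Of all RNAPII peaks, 72.3% met the condition on NELF-A, 38.2% that on NELF-B and 77.8% that on DRIP. These shares follow from the selection and are given as a description.

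RNAPII, NELF-A and NELF-B were mapped by chromatin immunoprecipitation and sequencing (ChIP-seq). R-loops were mapped by DRIP-seq, which uses digested genomic DNA and an antibody that recognises RNA-DNA hybrids. The cells of all samples came from thoracic and inguinal mammary glands of virgin mice of mixed strain, aged 6 to 8 weeks, with the lymph nodes of the inguinal glands taken out. No genotype, treatment of the mice or number of mice is stated, and the 4 analysed samples are set apart by their target; the NELF libraries were also made from less DNA with more cycles of PCR than the RNAPII libraries. The antibodies against both NELF subunits were homemade. Each of the 4 targets had 1 peak list, and the RNAPII and DRIP lists each stand for libraries titled replicates 1 and 2. The remaining sample, DRIP-seq after treatment with RNase H, was not analysed here. There was thus no spread between replicates, no p-value was computed, and the sequencing depth is unknown. All intervals are 95% intervals over peaks, which share their libraries, and cover counting error alone.

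NELF holds RNAPII in a paused state a short way into the gene after transcription has begun, and the kinase P-TEFb releases it. NELF-A and NELF-B are subunits of the same complex. NELF-B, also named COBRA1, is known as a partner of the breast cancer protein BRCA1. An R-loop forms when new RNA pairs again with its DNA template and leaves the other strand single. It is known from regions of active transcription, often near gene starts and gene ends. The gene tables at hand are of another build than the peaks, which are in mm9, so no gene, promoter or sequence was assigned to a peak.

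At nearly all members a single NELF-A peak and a single NELF-B peak sat on top of each other. The RNAPII peaks were 500 to 4750 bp wide with a median of 1000 bp, and 1402 of the 2034 (68.9%) were no wider than 1250 bp. The whole RNAPII list has the same median width, with 65.1% of peaks no wider than 1250 bp, and the rule itself leaves out the widest. Those of 3000 bp or more numbered 62 (3.05%). Exactly 1 NELF-A and 1 NELF-B peak lay on 1970 members (96.9%, interval 96.0 to 97.5%). Where a member had more, the peak with the highest score was used.

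NELF-B formed the narrower peak within NELF-A. The median width was 1250 bp for NELF-A and 750 bp for NELF-B, and NELF-B was narrower in 1778 members (87.4%) and wider in 41 (2.02%). The NELF-B peak lay inside the NELF-A peak, with ends shared or not, in 1885 members (92.7%, interval 91.5 to 93.7%). Among the 669 RNAPII peaks under 5000 bp with both subunits that did overlap DRIP, NELF-B was inside in 92.2% and narrower in 88.6%, close to the members' shares. The 2 peaks overlapped in 2024, which leaves 10 members where RNAPII met NELF-A and NELF-B at separate places. The rule did not ask for this overlap directly. In 1129 members (55.5%), however, the RNAPII peak lay wholly inside NELF-A, so a NELF-B peak on RNAPII had to overlap NELF-A.

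The centres of NELF-A and NELF-B lay within 250 bp of each other in 1857 members (91.3%, interval 90.0 to 92.4%) and at the same base in 626 (30.8%). The ends of the peaks lie on a 250 bp grid, so distances between centres come in steps of 125 bp. In 37 members (1.82%) the centres were over 500 bp apart. At the median widths, a 750 bp NELF-B peak inside a 1250 bp NELF-A peak cannot have its centre over 250 bp away. The closeness of the centres thus follows in part from the nesting. Among those 669 peaks with both subunits and DRIP, called DRIP-positive peaks here, 80.0% had centres within 250 bp. The odds ratio between the sets was 2.63 (2.06 to 3.35), and 1.57 (1.20 to 2.06) between RNAPII peaks of equal width. The width of the NELF-A peak was not matched, and its upper quartile was 1250 bp in members and 1750 bp in DRIP-positive peaks. A single peak of each subunit was less common among the DRIP-positive peaks (88.8%), but between RNAPII peaks of equal width the odds ratio came to 1.18 (0.803 to 1.74), so that no difference was resolved.

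At most of these sites the NELF-A peak covered most or all of the RNAPII peak. A median of 100% of the RNAPII peak lay under NELF-A (quartiles 75 and 100%) and a median of 60% under NELF-B (quartiles 42.9 and 75%). NELF-A was wider than RNAPII in 822 members (40.4%), as wide in 480 (23.6%) and narrower in 732 (36.0%). All 3 peaks had identical ends in 41 members. RNAPII peaks under 5000 bp with NELF-A and neither NELF-B nor DRIP also had a median of 100% under NELF-A. NELF-A was wider than RNAPII in 46.6% of them. Of the DRIP-positive peaks, 17.8% had a NELF-A peak wider than RNAPII. Those RNAPII peaks were themselves wider, with a median of 1750 bp.

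**Figure D1:**
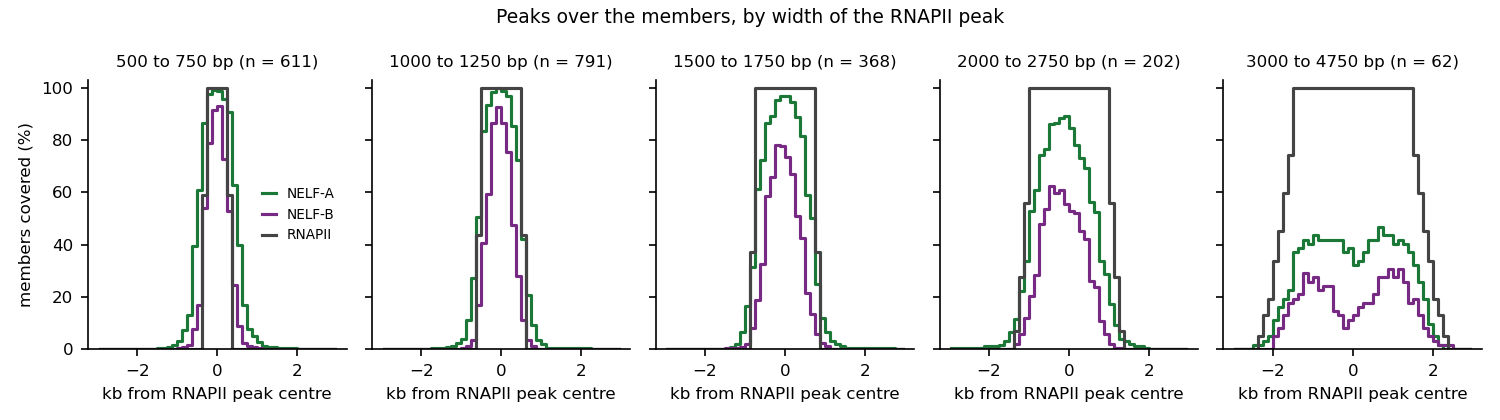
Share of members (y axis, percent) covered by the RNAPII, NELF-A and NELF-B peak at each distance from the RNAPII peak centre (x axis, kb), in 5 classes of RNAPII peak width with n members each. NELF-A and NELF-B are highest at or near the centre in the first 4 classes and spread to both sides in the class of 3000 to 4750 bp; members are not oriented, so a peak near 1 end shows on either side.

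In RNAPII peaks of 1500 bp or more, NELF was less centred the longer the peak was. A NELF-A centre was counted as lying at an end when it fell in the outer 25% of the RNAPII peak on either side, or beyond it. Among members of 1500 to 1750 bp this held for 21 of 368 (5.71%, interval 3.76 to 8.57%), and among those of 2000 to 2750 bp for 31 of 202 (15.3%, 11.0 to 21.0%). Among those of 3000 to 4750 bp it held for 32 of 62 (51.6%, 39.4 to 63.6%). The outer 25% at both ends makes up 50% of the peak, but centres beyond it count too, so this share does not show an even spread. In the longest class NELF-B covered 11.3% and 12.9% of members 62.5 bp to either side of the RNAPII centre. At 1187.5 bp to either side it covered 29.0% and 30.6%. NELF-A covered 38.7% and 32.3% at 62.5 bp and 41.9% on both sides at 1187.5 bp. The median distance between the NELF-A and RNAPII centres was 125, 250 and 875 bp in these 3 classes. For NELF-B the shares at an end were 9.51%, 20.3% and 54.8%. The NELF-A share rose in the comparison sets too. It was 18.6%, 21.6% and 68.2% in RNAPII peaks with NELF-A and neither NELF-B nor DRIP. In DRIP-positive peaks it was 8.82%, 14.7% and 40.2%. In members of 500 to 750 bp, where 1 step of the grid reaches the outer 25%, the NELF-A share was 20.3%. The median width of the NELF-A peak was 1250, 1500 and 1375 bp in the 3 classes of members of 1500 bp or more. How far the width of NELF-A relative to RNAPII sets the rise was not tested.

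Over all members of 1500 bp or more, 84 of 632 (13.3%) had NELF-A at an end. The background, all RNAPII peaks with NELF-A from 1500 bp up to the width limit, was 20.0%. The 2170 RNAPII peaks with NELF-A and neither NELF-B nor DRIP, called NELF-A-only peaks here, gave 25.2% (96 of 381). At equal RNAPII width the odds ratio of members to NELF-A-only peaks was 0.407 (0.282 to 0.586). With the DRIP-positive peaks (19.3%) it was 1.12 (0.780 to 1.62) at equal width, so no difference was resolved. Without members of 3000 bp or more the share at an end was 9.12%, so it depends on the longest members. The contrast with NELF-A-only peaks may follow in part from the rule, since NELF-B had to share a base with the RNAPII peak. Of the NELF-A-only peaks, 21 touched a NELF-B peak and 63 had one within 1000 bp. How far the rule shaped this contrast was not tested.

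**Figure D2:**
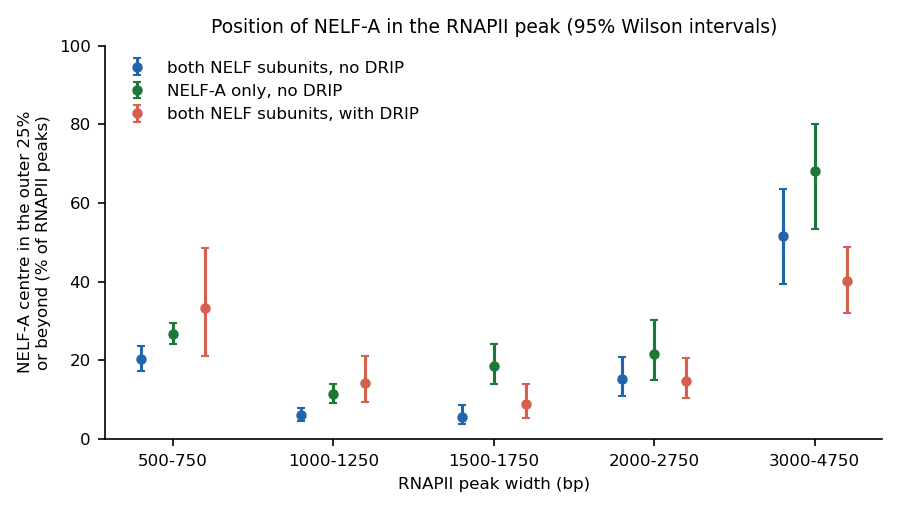
Share of RNAPII peaks whose NELF-A centre lies in the outer 25% or beyond (y axis, percent, 95% Wilson intervals), by RNAPII peak width (x axis, bp), for members and 2 comparison sets. In the class of 1500 to 1750 bp the members stand at 5.71% and the NELF-A-only peaks at 18.6%.

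The NELF-A and NELF-B peaks of highest score were centred away from the RNAPII centre in the 5 members with the most RNAPII, by differing distances. The highest RNAPII score, 2501, belonged to a 4500 bp peak on chromosome 1 from 51531751 to 51536250, and the score ranked 288 in the whole list. The score is the authors' value per peak, without a stated unit, and rises with width (Spearman's rho 0.963 across the 2034 members), so it is used within 1 list alone. NELF-A lay there from 51534501 to 51535750 with a score of 172 and NELF-B from 51534751 to 51535750 with 43. Another RNAPII peak touched the member on the side away from NELF, and the nearest DRIP peak began 1250 bp from it on that side.

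The next by RNAPII score, 2372, lay on chromosome 8 from 25545751 to 25549750. Its NELF-A peak of 500 bp was weak, with a score of 26 that ranked 4948 of 10782, and lay 1500 bp from the RNAPII centre. On chromosome 3, from 28704001 to 28708500, the RNAPII score was 2151 and both NELF centres lay 1750 bp from the RNAPII centre. The nearest DRIP peak was 486.25 kb away. The fourth, on chromosome 1 from 182778001 to 182782750, scored 2120 and carried 2 NELF-A peaks and 1 NELF-B peak. Its stronger NELF-A peak and its NELF-B peak lay 625 and 750 bp from the RNAPII centre, which is not in the outer 25%. The weaker NELF-A peak, with a score of 22, lay on the other side of the centre. The fifth, on chromosome 9 from 75254001 to 75258750, scored 2107, and its NELF-A and NELF-B centres lay 1250 and 1500 bp from the RNAPII centre. In all 5, then, NELF took up part of a long RNAPII peak. On chromosome 3 NELF-A began at the first base of the RNAPII peak, and on chromosome 8 NELF-B ended at its last.

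The member with the most RNAPII was also among those with the strongest NELF, at rank 3 of the members by NELF-A score and rank 4 by NELF-B score. The others named for their NELF scores were 1500 to 2250 bp wide. A NELF-A peak of 3750 bp with a score of 298, which ranked 12 of the NELF-A list, spanned 2 members on chromosome 8, from 11555251 to 11556750 and from 11557001 to 11559000. Each had its own NELF-B peak, with scores of 22 and 52, and 52 was the highest NELF-B score of any member. A DRIP peak touched the first of them. On chromosome 16, from 91647001 to 91649250, NELF-A (score 170) and NELF-B (41) had identical ends at 91647001 and 91648750. On chromosome 10, from 79630001 to 79632000, NELF-A scored 168 and NELF-B 42. The next highest NELF-B scores, 51 and 44, were on chromosome 3 from 108356751 to 108358250 and on chromosome 6 from 117828751 to 117830750, and in both NELF-A had the same ends as NELF-B. In these sites the NELF-A and NELF-B peaks had the same or nearly the same extent, except at the 2 that share a NELF-A peak. Among all members, both had identical ends in 161 (7.92%). The named sites were picked by scores that rise with peak width, so they do not show how strong NELF relates to extent. Of all members, 14 shared their NELF-A peak with another member and 10 their NELF-B peak.

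**Figure D3:**
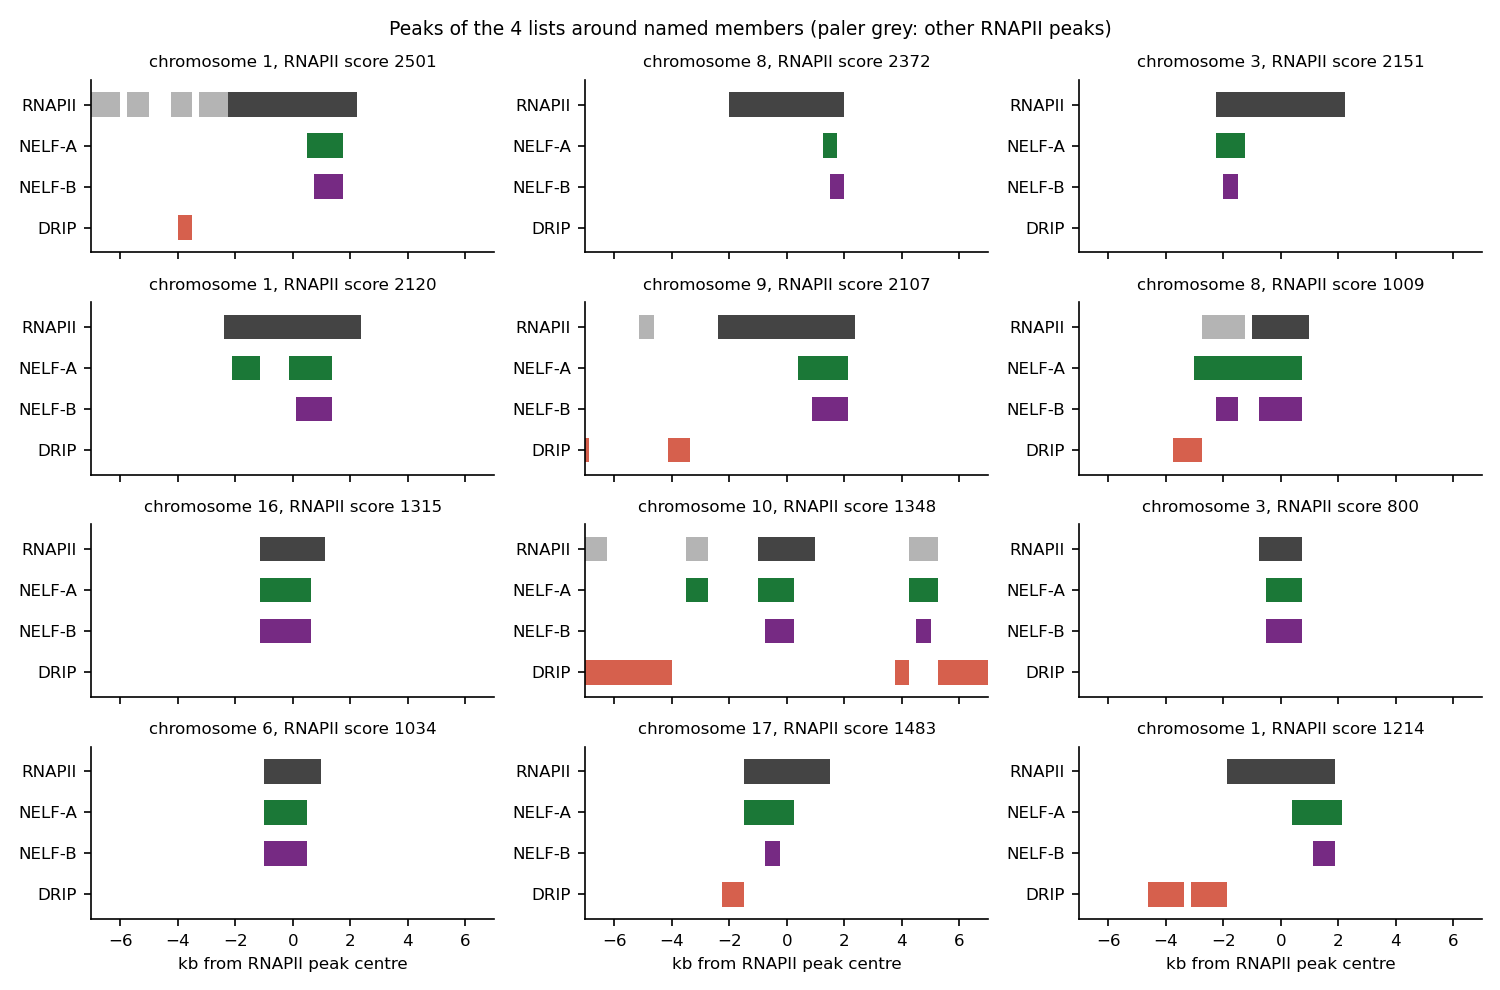
Peaks of the 4 lists within 7 kb of 12 members, drawn to scale against distance from the RNAPII peak centre (x axis, kb), 1 row per target; members are named by chromosome and RNAPII score. The 5 of highest RNAPII score come first, then those of high NELF-A or NELF-B score, then 2 of those touched by a DRIP peak.

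NELF-A scores at the members lay mostly above the median of their list, while NELF-B scores lay around the median of theirs. The NELF-A score ran from 9 to 298 with a median of 44, and 1877 members (92.3%) stood above the median of the whole NELF-A list, 24. The same held for 59.9% of NELF-A-only peaks and 96.9% of DRIP-positive peaks. The NELF-B score ran from 7 to 52 with a median of 10, which is also the median of its list. In 445 members (21.9%) NELF-B had the lowest score of its list, 7, against 28.7% of the whole NELF-B list and 14.3% of DRIP-positive peaks. At the lowest NELF-A score, 9, were 5 members (0.246%), against 10.5% of the whole NELF-A list. A weaker NELF-B peak would have put such a site among the NELF-A-only peaks. Across members the NELF-A and NELF-B scores went together with a rho of 0.493, or 0.348 per base. RNAPII and NELF-A scores had a rho of 0.568, or 0.484 per base. These correlations are over peaks whose scores all rise with width.

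The stronger NELF-A was, the more often NELF-B was listed too. Among RNAPII peaks under 5000 bp with NELF-A and no DRIP, NELF-B was present at 73 of 644 with a NELF-A score of 9 to 19 (11.3%). It was present at 449 of 956 with a score of 30 to 39 (47.0%) and at 432 of 498 with a score of 60 to 99 (86.7%). At equal NELF-A width the median NELF-A score of members was 1.32 times that of NELF-A-only peaks, with ratios of 1.11 to 1.90 over 8 widths. At 1000 bp, for example, the medians were 38 and 29. The RNAPII score at equal RNAPII width was 1.07 times as high, from 1.00 at 500 bp to 1.21 over 12 widths. These ratios carry no test. They may follow in part from the selection on NELF-B, since weak sites can fall below a list's floor. How far they do was not tested.

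Compared with DRIP-positive peaks of equal width, members had lower median NELF scores. The ratio of medians was 0.970 for RNAPII, with 0.702 to 1.07 over 16 widths, 4 of them above 1. It was 0.875 for NELF-A, with 0.833 to 1.00 over 9 widths of the NELF-A peak. For NELF-B it was 0.941, with 0.889 to 1.00 over 7 widths of the NELF-B peak. None of these NELF-A or NELF-B ratios, taken at equal width of the NELF peak itself, exceeded 1. At equal RNAPII width the NELF-A ratio was 0.854, with 0.595 to 1.10 over 16 widths, 1 of them above 1.

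Most members stood alone. Another RNAPII peak lay within 10 kb of 389 members (19.1%, interval 17.5 to 20.9%), against 41.4% of all RNAPII peaks. The gap to the next RNAPII peak had a median of 50000 bp (quartiles 15750 and 113500 bp). Of the NELF-A-only peaks 23.4% had such a neighbour, of the DRIP-positive peaks 39.5%, and of the 1689 peaks with neither NELF subunit nor DRIP, called NELF-free peaks here, 74.8%. At equal width the odds ratio of members was 0.674 (0.576 to 0.790) to NELF-A-only peaks, 0.591 (0.476 to 0.733) to DRIP-positive peaks and 0.0710 (0.0596 to 0.0847) to NELF-free peaks. Among members the share rose with width, from 14.1% at 500 to 750 bp to 54.8% at 3000 to 4750 bp.

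Where a member did have a neighbour within 10 kb, the nearest one was a NELF-A-only peak in 117 of 389 (30.1%) and a NELF-free peak in 117 (30.1%). It was another member in 86 (22.1%) and a DRIP-positive peak in 24 (6.17%). For background, these classes held 2170, 1689, 2034 and 669 of all 7718 RNAPII peaks, in the same order. In 48 cases 2 members followed each other in the RNAPII list with a gap of at most 10 kb. The densest group was on chromosome 13, with 4 members between 23622501 and 23654750 and RNAPII scores of 531, 241, 107 and 264. It was 1 of 2 windows of 50 kb that held 4 members. Members were found on all 20 chromosomes of the list and made up 21.4% to 31.6% of each chromosome's RNAPII peaks. For none of the 20 did the interval leave out the 26.4% of the whole list.

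**Figure D4:**
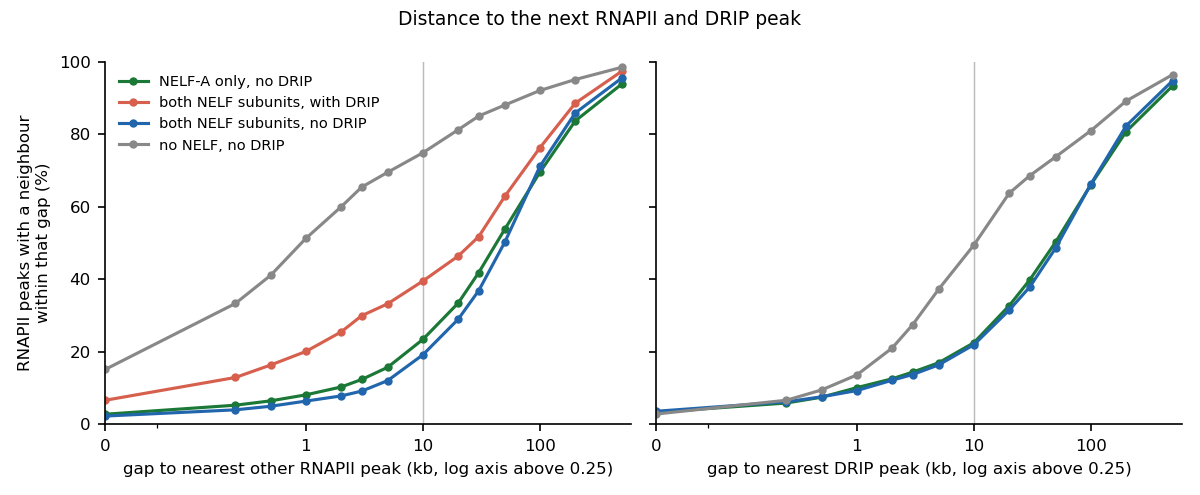
Share of RNAPII peaks (y axis, percent) whose next RNAPII peak (left) or next DRIP peak (right) lies within the gap on the x axis (kb, log axis above 0.25 kb), for members and the comparison sets; DRIP-positive peaks overlap DRIP and have no line on the right. At 10 kb, marked by a grey line, members stand at 19.1% for RNAPII and 21.9% for DRIP.

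Nearby DRIP peaks were about as common at members as at NELF-A-only peaks. A DRIP peak lay within 10 kb of 445 members (21.9%, interval 20.1 to 23.7%), counting those that touched an end. This compares with 30.0% of all RNAPII peaks under 5000 bp without DRIP overlap. The median gap was 53000 bp (quartiles 13000 and 142500 bp). NELF-A-only peaks had DRIP within 10 kb in 22.4%, an odds ratio of 0.968 (0.837 to 1.12), and 0.869 (0.747 to 1.01) at equal width. When sharing was counted from 50% of the shorter peak, the latter became 0.834 (0.720 to 0.966). At equal width and equal class of distance to the next RNAPII peak it was 0.948 (0.811 to 1.11). NELF-free peaks had DRIP within 10 kb in 49.4%. At equal width and class of RNAPII distance the odds ratio of members to them was 0.565 (0.465 to 0.687), against 0.287 with no such matching. Classes of distance were up to 1 kb, up to 3 kb, up to 10 kb and more.

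The DRIP peaks near members matched the whole DRIP list in median width and score. The 435 different DRIP peaks that were nearest to a member within 10 kb had medians of 750 bp in width and 58 in score, both equal to those of all 10031 DRIP peaks. Counted per member, 351 of 445 (78.9%) overlapped none of the other 3 lists and 62 (13.9%) overlapped an RNAPII peak. By the rule none could overlap the RNAPII peak of that member. The same shares over all DRIP peaks are not given here, so these cannot be read as particular to DRIP near members. In 31 members (1.52%) the NELF-A peak reached out of the RNAPII peak and met DRIP there, and in 1 member the NELF-B peak did.

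Where DRIP was nearby, it lay more often on the side of the RNAPII peak away from NELF-A. In 1460 members the NELF-A centre was off the RNAPII centre, which gave the peak a NELF-A side and another side. Of the 330 of these with a DRIP peak within 10 kb and no tie between the sides, the nearest one was on the other side in 213 (64.5%, interval 59.2 to 69.5%), where an even split would give 50%. The share was 70.3% (62.5 to 77.2%) in members of 1500 bp or more and 60.0% (52.8 to 66.8%) in shorter ones. For gaps over 1 kb it was 69.4% (62.6 to 75.5%), and for gaps of 1 kb or less 57.7% (49.3 to 65.6%), an interval that includes 50%. DRIP covered on average 2.59% of the 10 kb on the other side and 1.34% of the 10 kb on the NELF-A side. NELF-A-only peaks gave 57.6% (52.4 to 62.6%), and the odds ratio between the sets at equal width was 1.22 (0.882 to 1.68), so no difference was resolved.

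**Figure D5:**
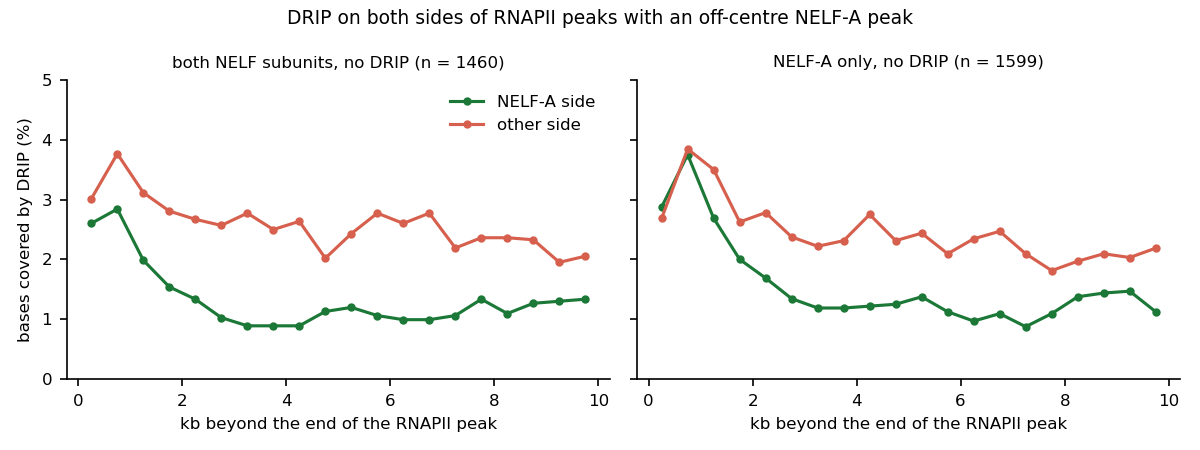
Percent of bases covered by DRIP peaks (y axis) in steps of 500 bp from the end of the RNAPII peak outwards (x axis, kb), on the side where the NELF-A centre lies and on the other side, for members and NELF-A-only peaks with an off-centre NELF-A peak. In members, coverage is between 0.890% and 2.84% on the NELF-A side and between 1.95% and 3.77% on the other.

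The nearest neighbouring RNAPII peak within 10 kb was on the side away from NELF-A in 172 of 305 members (56.4%, interval 50.8 to 61.8%). It was 66.0% (57.9 to 73.2%) in members of 1500 bp or more and 47.8% (40.3 to 55.5%) in shorter ones. Of both width classes, the interval of the longer one leaves out 50%; the difference between them was not tested. NELF-A-only peaks gave 51.8% (46.9 to 56.6%) in all and 67.2% (80 of 119) at 1500 bp or more. The odds ratio of members to them at equal width was 0.936 (0.678 to 1.29), so no difference was resolved. DRIP-positive peaks gave 76.3% (180 of 236), and at equal width the odds ratio of members to them was 0.596 (0.393 to 0.905). Among members under 3000 bp the share was 53.7%, close to an even split.

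The values close to the limits of the rule are as follows. The widest 3 members, 4750 bp, scored 2120 and 2107 for RNAPII on chromosomes 1 and 9, given above, and 2073 on chromosome 11 from 23667751 to 23672500. The 2 narrowest of the 25 peaks that missed the rule by width alone, both 5250 bp, scored 2416 on chromosome 2 from 127161501 to 127166750 and 2223 on chromosome 6 from 38300501 to 38305750. A DRIP peak touched 72 members without sharing a base, among them a 3000 bp peak on chromosome 17 from 73266751 to 73269750 (RNAPII score 1483, NELF-A 138, NELF-B 21). Another was a 3750 bp peak on chromosome 1 from 132991001 to 132994750 (1214, 50 and 18). On the other side of that limit, 81 DRIP-positive peaks shared 250 bp or less with DRIP. One of these was on chromosome 14 from 79880501 to 79884000, with scores of 1592, 92 and 17 in the same order. With NELF-A, 9 members shared 250 bp or less, and with NELF-B 94 did. At the far end, 2 members on chromosome 7, from 46772751 to 46773750 and from 46807751 to 46808500, were 3221.5 and 3186.75 kb from any DRIP peak, with RNAPII scores of 279 and 180.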

How the data were processed

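For each target the deposited file lists peaks by position with a whole-number score from the authors, whose unit and derivation are not stated. The aligner was BWA and the build mm9, per the submitters' processing notes. Not given in the sources used here are the peak caller, its threshold, any input control and how libraries were combined.

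Coordinates were read as 1-based, and touching peaks were kept apart. Overlap meant 1 bp or more. Gaps count the bases between peaks, so touching peaks have a gap of 0. Members and comparison sets were chosen with earlier results of these data known. Shares carry Wilson intervals, odds ratios Woolf intervals, and odds ratios at equal width are Mantel-Haenszel estimates over exact widths. Ratios of medians are medians over widths with 5 or more peaks per set, weighted by members. Named regions were the 5 highest by RNAPII, NELF-A and NELF-B score, the 3 widest, the 3 nearest to and farthest from DRIP, the densest 50 kb and 2 on each side of a threshold; some are left out of the text. Overlaps, gaps and pooled odds ratios were tested on simulated data. Python 3.11.15, pandas 2.3.3 and scipy 1.17.1 were used. Planned analyses of gene starts, gene lists and sequence were not run for lack of a matching build.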

Additional observations from a re-analysis of the deposited data

How the results depend on the processing

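Alternatives were computed for 10 results and gave 71 values, of which 59 stayed within the limits of the result, 12 moved beyond them and 0 reversed. The limits were the interval for shares, the spread over widths for ratios of scores and a fixed fold range for the number of members. A reversal was defined only for the shares by side and the ratios of scores. The values split by the coordinate side of NELF-A, given below, were not planned. With touching peaks joined, 98.1% of members had 1 NELF-A and 1 NELF-B peak and 17.4% had another RNAPII peak within 10 kb. Among the upper 50% of the RNAPII, NELF-A and NELF-B lists by score there were 815 members. Of these, 99.3% had 1 peak of each subunit, 11.3% another RNAPII peak within 10 kb and 23.8% a DRIP peak within 10 kb. NELF-A lay at an end in 9.85%, and the nearest RNAPII peak lay away from NELF-A in 65.8%. For RNAPII peaks under 3000 bp, NELF-A lay at an end in 9.12%, and with position taken from NELF-B the share was 17.4%. Within 5 kb, 12.0% had another RNAPII peak and 16.3% a DRIP peak. Leaving out the X chromosome, or the 16 regions of extra-high signal, in which 0 members lie, moved none of the 10 results, nor did counting overlap from 50% of the shorter peak. No replicate could be left out. No paired analysis was possible because each target had 1 list. The DRIP list has no RNase H check here, and without depth a peak missing from a list cannot be told apart from a weak one.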

Other observations

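NELF was not placed evenly around the RNAPII centre with respect to the direction of the reference genome. Among the 1460 members with an off-centre NELF-A peak, its centre lay towards lower coordinates in 817 (56.0%, interval 53.4 to 58.5%), and for NELF-B in 836 of 1454 (57.5%, 54.9 to 60.0%). DRIP-positive peaks gave 55.3% (51.1 to 59.4%) for NELF-A, and NELF-A-only peaks 49.7% (47.2 to 52.1%). The mean shift in members was -22.9 bp for NELF-A and -36.5 bp for NELF-B, less than the 250 bp step of the lists. Its part in the results on position was not tested. The side of DRIP, computed apart after the data were seen, was away from NELF-A in 63.0% (55.9 to 69.5%) of members with NELF-A towards lower coordinates and in 66.7% (58.5 to 73.9%) of those with NELF-A towards higher ones. For the nearest RNAPII peak these shares were 54.3% (47.1 to 61.3%) and 59.7% (50.7 to 68.0%).

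In the 48 pairs of members that followed each other within 10 kb, NELF-A lay on the facing sides in 11, on the outer sides in 7 and on the same side in 8, and in the other 22 at least 1 NELF-A centre was at the RNAPII centre. The median gap in these pairs was 5000 bp, and 10 pairs had a gap of 1000 bp or less.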
